A study of Lemna gibba and Lemna japonica and Spirodela polyrhiza with 12 samples.

Results

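The small RNA loci of 63 chromosomes from a pair of duckweeds were compared by chromosome number. Chromosomes 1 to 21 of Lg7742a, an accession of Lemna gibba, were set against the same-numbered M and, separately, the same-numbered T chromosomes of Lj8627, an accession of Lemna japonica. All loci on these chromosomes that carry a size call field were taken, 34792 of the 79572 loci listed for the 4 accessions of the study. They comprise 9839 loci in Lg7742a, 15872 on M and 9081 on T chromosomes. Each accession is 1 line, untreated, kept in sterile culture on sucrose medium under a long day, and its whole fronds were sampled in 3 biological replicates. The deposited lists join the 3 replicates of an accession, so each accession gives a single value. The scatter among replicates is therefore unknown, and differences are described without a test.

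Duckweeds are floating plants that multiply mostly by budding. Lemna japonica is known as a hybrid of Lemna minor and Lemna turionifera; the files give its chromosomes as M and T without spelling the letters out. Plants cut small RNAs with several Dicer-like enzymes. The 24 nt products come largely from transposons and other repeats and direct DNA methylation, 21 and 22 nt products mostly silence transcripts, and microRNAs are released from short RNA hairpins as a mature strand and a star strand. An equal number does not prove that chromosomes of different assemblies descend from the same one.

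Depth sets limits on what follows. Loci on the chromosomes held 4928061 reads in Lg7742a, 2737536 on M and 2529832 on T, and most lay in hairpins: 79.8%, 76.6% and 83.1%. Outside hairpins there were 994064, 639717 and 428521 reads. M and T share the reads of the same libraries, so each hybrid set was sampled less deeply than Lg7742a. The smallest locus held 3 reads in every set. Lengths run to the end of the last locus of a chromosome, and add up to 485 Mb in Lg7742a, 337 Mb on M and 415 Mb on T. Same-numbered chromosomes followed each other in length. The Spearman rank correlation over 21 numbers was 0.96 for M and 0.95 for T against Lg7742a, given as a description, since numbers largely follow length in each assembly. Every M chromosome was shorter than its Lg7742a namesake, at 61.1% to 81.0% of its length. T chromosomes reached 59.7% to 118% and were longer on 3 numbers.

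The M chromosomes stood apart from Lg7742a by their 24 nt loci, the class made from repeats. There were 6771 such loci on M, 20.1 per Mb, against 2247 in Lg7742a, 4.63 per Mb. The ratio per Mb was 4.34, with a 95% interval of 4.13 to 4.55. Intervals here and below cover counting error only, since the reads carry no molecular identifiers and loci are not replicates. M was denser on 21 of 21 numbers, and on all 21 the interval of the ratio lay above 1. The T chromosomes carried 1856 loci of 24 nt, or 4.47 per Mb. Their ratio to Lg7742a was 0.966 (0.907 to 1.03), and T was denser on 8 numbers and sparser on 13.

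Single chromosomes varied around these values. Chromosomes of Lg7742a had between 3.58 loci of 24 nt per Mb, on chr4, and 5.95, on chr20. On M the range was 16.2 on chr11M to 30.1 on chr21M, so the sparsest M chromosome exceeded the densest of Lg7742a. On T it was 2.26 on chr11T to 7.51 on chr21T, overlapping Lg7742a. The M to Lg7742a ratio was highest for number 21, at 6.22 (4.59 to 8.58), and number 6, at 5.53 (4.46 to 6.92). It was lowest for number 11, at 3.12 (2.45 to 4.00), and number 20, at 3.21 (2.46 to 4.22). The same numbers 11 and 20 were lowest for T against Lg7742a, at 0.434 (0.296 to 0.626) and 0.597 (0.417 to 0.847), and number 21 was again highest, at 1.55 (1.06 to 2.28). Both sets of ratios share the Lg7742a value of each number as divisor. Chromosomes 11 and 20 of Lg7742a were among its denser ones, with 5.21 and 5.95 loci per Mb. Its chromosome 21 had 4.84, close to the median of 4.72. Why these numbers gave the extreme ratios was not tested.

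**Figure D1:**
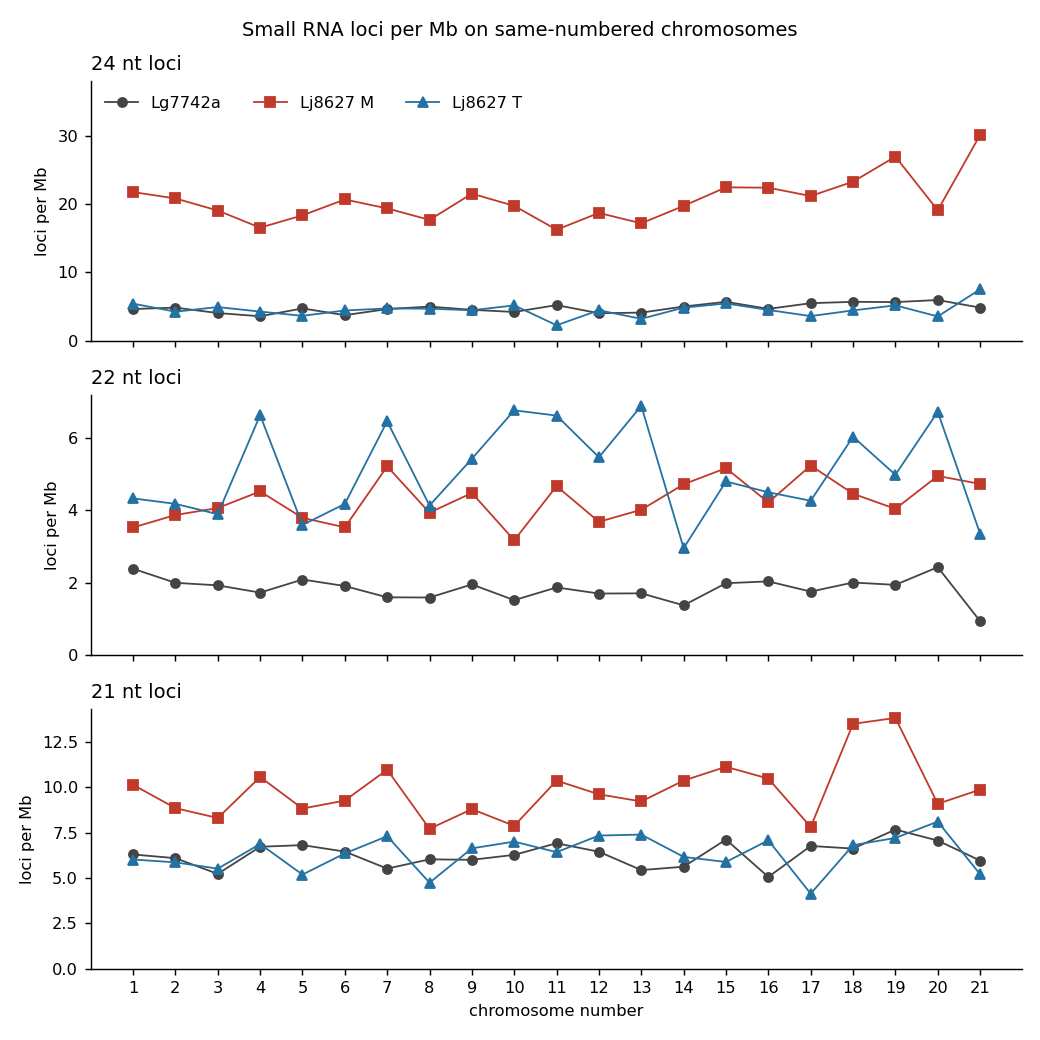
Loci per Mb (vertical axes, from 0) of the 24, 22 and 21 nt classes on chromosome numbers 1 to 21 (horizontal axis), for Lg7742a, M and T; each point is 1 chromosome of the pooled lists and lines only join points of a set. M lies above Lg7742a on all 21 numbers in each panel, T lies among the Lg7742a values for 24 and 21 nt, and both hybrid sets lie above Lg7742a for 22 nt.

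Loci of 22 nt, a size that in plants can start the production of secondary small RNAs, were denser on both hybrid sets. Lg7742a had 899 of them, 1.85 per Mb. M had 1412, or 4.19 per Mb, and T had 2107, or 5.08 per Mb. The ratio to Lg7742a was 2.26 (2.08 to 2.46) for M and 2.74 (2.53 to 2.97) for T. Either set was denser on 21 of 21 numbers with every interval above 1. For T the ratio ran from 1.73 (1.23 to 2.44) on number 5 and 1.82 on number 1 to 4.06 on number 7 and 4.48 (3.15 to 6.49) on number 10. For M the lowest values were 1.48 (1.10 to 1.99) on number 1 and 1.82 on number 5. The highest were 3.45 on number 14 and 5.09 on number 21, where the interval of 2.47 to 11.5 is wide because chr21 of Lg7742a had only 10 such loci against 36 on chr21M.

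The 21 nt class, the usual size of microRNAs, separated the hybrid sets differently. Densities were 6.21 loci per Mb in Lg7742a, 9.64 on M and 6.36 on T. M was denser on 21 of 21 numbers, with a ratio of 1.55 (1.48 to 1.63). T was denser on 11 and sparser on 10, with a ratio of 1.02 (0.972 to 1.08). The highest M ratios were 2.07 on number 16 and 2.04 on number 18, and the lowest 1.15 on number 17 (0.833 to 1.60) and 1.25 on number 10. For T, number 17 was also lowest at 0.611 (0.391 to 0.932), followed by number 5 at 0.762, and number 16 was also highest at 1.40 (1.06 to 1.85), followed by number 13 at 1.36.

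The 23 nt class behaved like the 24 nt class, with 1.09 loci per Mb in Lg7742a, 3.58 on M and 0.986 on T. Ratios were 3.29 (2.97 to 3.65) for M, above 1 on 21 of 21 numbers, and 0.905 (0.794 to 1.03) for T. Loci without a size call were denser on M, with a ratio of 1.47 (1.40 to 1.55), and sparser on T, with 0.767 (0.726 to 0.811). T was below Lg7742a on 21 of 21 numbers here, and M was above on 20, the exception being number 13. On that number Lg7742a had its highest density of loci without a size call, 10.7 per Mb. As shares of their own lists, 24 nt loci made up 42.7% on M, 22.8% in Lg7742a and 20.4% on T, while 22 nt loci made up 8.90%, 9.14% and 23.2%.

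How many loci remained at a higher read minimum differed between sets and classes. At 10 reads, 24 nt loci fell to 0.452 per Mb in Lg7742a, 2.35 on M and 0.263 on T. The M ratio was then 5.20 (4.47 to 6.07), still above 1 on 21 of 21 numbers. The T ratio was 0.582 (0.458 to 0.735), with T denser on 3 numbers. The 22 nt ratio of T rose to 4.38 (3.87 to 4.97), with 1215 loci against 324 in Lg7742a, and that of M was 2.15 (1.86 to 2.48). The 21 nt excess on M was no longer seen at this minimum, with a ratio of 1.03 (0.952 to 1.12) and M denser on 11 numbers. Reads per locus went the same way. The median 22 nt locus outside hairpins held 11 reads on T, 7 in Lg7742a and 6 on M, whereas medians of the 24 nt class were 5, 5 and 6 reads on T, in Lg7742a and on M.

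T had the fewest reads outside hairpins, so a common minimum was also applied after scaling Lg7742a and M down to T, by factors of 0.431 and 0.670. M and T come from the same libraries, so these factors take in how much small RNA each set gave, not depth alone. At 10 scaled reads the 24 nt ratio was 7.01 for M and 2.71 for T, the 22 nt ratio 2.52 for M and 8.26 for T, and the 21 nt ratio 1.23 for M and 1.63 for T. This scaling asks for more reads per locus in Lg7742a than on M or T, which favours ratios above 1, so it is not counted as support. The excess of M in 24 nt loci and of both sets in 22 nt loci held at the minimums of 5 and 10 reads without scaling. The T to Lg7742a ratio of 24 nt loci was above 1 only after this scaling and below 1 without it, and no direction is given for it.

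**Figure D2:**
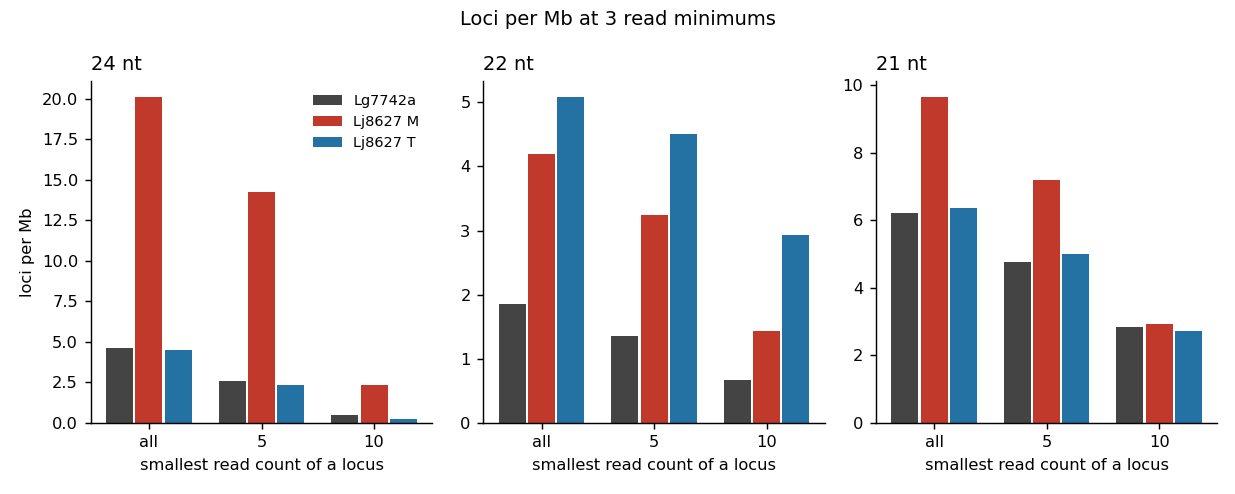
Loci per Mb (vertical axes, from 0, a scale of its own in each panel) of the 24, 22 and 21 nt classes when all loci, loci of at least 5 reads or loci of at least 10 reads are counted (horizontal axis). Bars are Lg7742a, M and T, without error bars because replicates are pooled; M stays highest for 24 nt, T highest for 22 nt, and the 3 sets come together for 21 nt at 10 reads.

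Reads were taken outside hairpins and scaled to 1000000 reads in all loci of the accession, a unit called RPM here. M and T share the same divisor, the 5394332 reads of Lj8627, whereas Lg7742a has its own, 5005362. The Lj8627 reads are spread over 337 Mb of M and 415 Mb of T, against 485 Mb in Lg7742a. This lowers the RPM per Mb of both hybrid sets. Whether ratios below 1, here and below, go beyond it was not tested. For 24 nt loci the median over 21 chromosomes was 6.09 RPM per Mb in Lg7742a, 25.3 on M and 4.74 on T. M was above Lg7742a on 18 of 21 numbers and T on 1. Over the whole sets the values were 12.9, 25.3 and 4.62 RPM per Mb, a ratio to Lg7742a of 1.96 for M and 0.358 for T. With the 2 most read loci of each set left out, these ratios were 2.13 and 0.392. That setting kept most of the deeply read loci of Lg7742a. The Lg7742a value leans on 10 loci of 24 nt with 1575 to 1670 reads each, on 5 chromosomes. The whole class there had 2247 loci and 31300 reads. Whole-set ratios without all 10 of these loci were not worked out. The most read lay on chr10, from 5418261 to 5418686 on the plus strand, with 1670 reads, and on chr7, from 16870163 to 16870875 on the minus strand, with 1664. The numbers on which Lg7742a exceeded M were 7, 10 and 13, and there 4, 2 and 2 such loci held 88.0%, 85.5% and 86.1% of the 24 nt reads. With loci of at least 1000 reads left out, a limit chosen after the values were seen, chr7 fell from 54.1 to 6.50 RPM per Mb, and M was above Lg7742a on every number. On T no 24 nt locus exceeded 152 reads. On M, 1108 reads lay on chr14M from 647379 to 647893, and the next locus held 170.

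For 22 nt loci the medians over chromosomes were closer, at 19.96 RPM per Mb in Lg7742a, 25.2 on M and 27.0 on T, with 12 of 21 numbers above Lg7742a for each hybrid set. Over the whole sets the values were 32.9, 94.4 and 40.1 RPM per Mb, a ratio to Lg7742a of 2.87 for M and 1.22 for T. Single loci made up much of the M value. A locus of 23427 bp on chr7M, from 17083605 to 17107031, held 55159 reads, 32.2% of the class on M, and one of 33122 bp on chr2T, from 28570815 to 28603936, held 15603, or 17.4%. The loci on chr7M and chr2T were assigned to neither strand. Another on chr2M, from 13648707 to 13649780 on the minus strand, held 47206, or 27.5%. The corresponding lead in Lg7742a was a minus-strand locus of 4567 bp on chr13, from 20352981 to 20357547, with 12884 reads. Without the 2 most read loci of each set the ratio was 1.51 for M and 1.25 for T. For 21 nt loci Lg7742a had the higher median, 111 RPM per Mb, against 50.8 on M and 31.7 on T. M exceeded it on 8 numbers and T on 2. Over the whole sets the 21 nt values were 183, 156 and 69.8 RPM per Mb. The shared divisor lowers the M and T values, so no lower output of 21 nt reads is read from them.

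Along the chromosomes the sets resembled one another in the 24 nt class. Each chromosome was divided into 10 equal bins. The bins at both ends together held 28.7% of the 24 nt loci of Lg7742a (26.8 to 30.6), 31.0% on M (30.0 to 32.2) and 28.3% on T (26.3 to 30.4), where even spacing gives 20%. The bins on both sides of the middle held 17.7%, 16.9% and 18.3%. The last bin was the fullest in all 3 sets, with 6.93 loci per Mb in Lg7742a, 34.3 on M and 7.40 on T. At 10 reads the ends held 34.0% on M but 14.2% in Lg7742a and 13.8% on T, so the few deep 24 nt loci of the latter sets did not share the lean to the ends.

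The 23 nt class leaned to the ends much like the 24 nt class in Lg7742a, with 28.6% (24.9 to 32.6), and on M, with 28.2% (25.7 to 30.8), and the share on T was 22.7% (18.9 to 27.0). In Lg7742a and on M the ends held smaller shares of the other classes. On T those shares were below that of 24 nt loci, but not all were below that of 23 nt loci. The ends took 22.02% of the 21 nt loci of Lg7742a (20.6 to 23.6), 26.8% on M (25.2 to 28.3) and 23.8% on T (22.2 to 25.4). For 22 nt loci the shares were 22.7%, 25.5% and 21.4%, and on T the ends and the middle held about the same, 21.4% and 21.5%. For loci without a size call they were 23.6%, 23.6% and 26.1%. Over all 210 bins of the 21 numbers, the rank correlation with Lg7742a was 0.34 for M and 0.22 for T in 24 nt loci. It was 0.10 and 0.00 in 22 nt loci. These are descriptions without a test, over bins that share libraries and, for the ends, the same general slope.

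**Figure D3:**
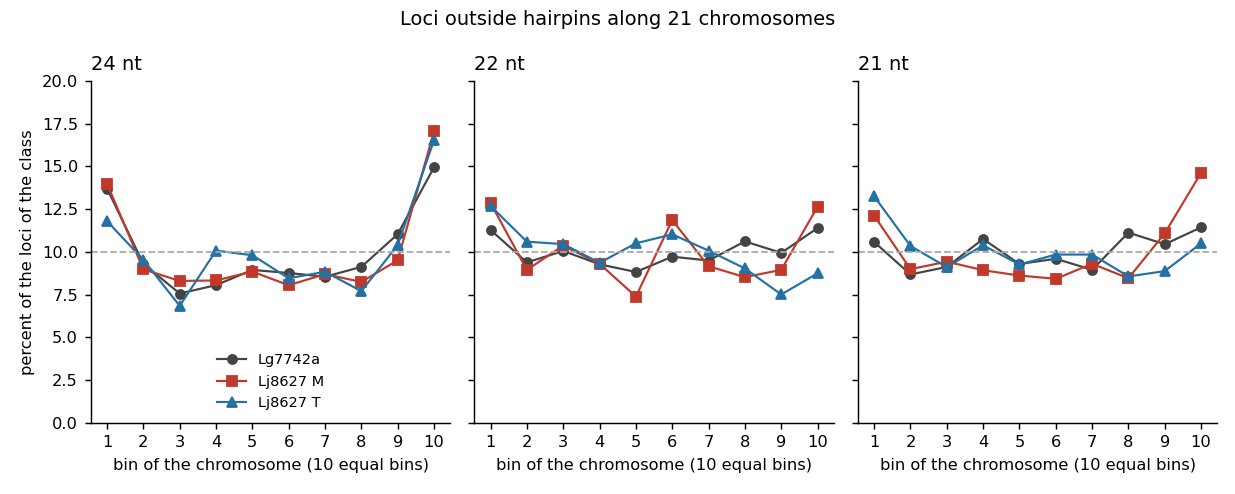
Percent of the loci of a class (vertical axis, from 0) in each of 10 equal bins of the chromosome (horizontal axis, 1 to 10 in the assembly's direction), summed over 21 chromosomes for Lg7742a, M and T, hairpins left out; the dashed line at 10 marks even spacing. The 24 nt lines of all 3 sets rise at bins 1 and 10, and those of 22 and 21 nt loci are flatter.

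Median locus length was 414 bp for 24 nt loci in each set, and in Lg7742a, on M and on T it was 421, 419 and 421 bp for 21 nt loci and 422, 420 and 429 bp for 22 nt loci. Loci over 600 bp made up 19.2% of all 22 nt loci in Lg7742a, 15.4% on M and 29.1% on T. Among those of at least 10 reads the order of Lg7742a and T was turned, with 53.4%, 44.4% and 49.8%. Strand also differed. Precursors made double-stranded before cutting give reads from both strands. Of all 24 nt loci, 73.8% on M were assigned to neither strand, compared with 65.6% in Lg7742a and 66.4% on T. Among 24 nt loci of at least 10 reads, 91.7% on M (89.5 to 93.4) were assigned to neither strand, compared with 74.0% in Lg7742a (67.8 to 79.3) and 69.7% on T (60.5 to 77.6). In the other classes the order depended on depth. The share among all 22 nt loci was 59.1% in Lg7742a, 67.3% on M and 62.2% on T, and at 10 reads 74.4%, 75.6% and 66.7%. For 21 nt loci it was 51.0%, 61.8% and 56.9%, and at 10 reads 46.9%, 53.6% and 57.4%.

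MicroRNA hairpins numbered 81 on the chromosomes of Lg7742a, 72 on M and 65 on T, or 0.167, 0.214 and 0.157 per Mb. Their lengths were alike, with medians of 127, 128 and 126 bp. Mature strands of 21 nt made up 74, 64 and 58 of them. The mature strand lay on the 5′ arm in 48, 41 and 36. At least 1000 reads were held by 35 hairpins in Lg7742a, 34 on M and 34 on T. The median hairpin held 380 reads in Lg7742a, 896 on M and 2285 on T.

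By number, hairpins were unevenly spread. Number 5 had 11 in Lg7742a but 2 on M and 3 on T. Number 16 had 1 in Lg7742a and 4 on each hybrid chromosome, and number 11 had 1, 5 and 1. Some of these differences came from runs of like hairpins, singled out after their values were seen. On chr5 of Lg7742a, 6 hairpins lay within 717 kb, from 16560494 to 17277078. Of these, 5 were 147 bp long and held 183 to 287 reads each, and chr5M and chr5T had no hairpin of such length and mature position. Other numbers had such hairpins, among them a hairpin of 146 bp on chr18M and another of 149 bp on chr8T. On chr11M, 3 hairpins of 232 to 233 bp lay within 26.5 kb, from 10330322 to 10356832, with 1532 to 1544 mature reads each. A further hairpin of 230 bp followed on the same strand, from 10371378 to 10371607. It held 960 reads and had its mature strand on the 5′ arm, where the other 3 had theirs on the 3′ arm. None like those 3 was listed on chr11 or chr11T, but Lg7742a had like hairpins on other numbers. These were 226 bp long on chr8 and 231 bp long on chr20, with 739 and 3256 mature reads. On chr2T, 3 hairpins of 114 to 116 bp lay within 36.6 kb and held 6290 to 6919 reads each. Chr2 of Lg7742a had 2 hairpins of that kind, 4582 bp apart, with 1103 and 3900 reads. Chr2M had a hairpin of 116 bp with 6865 reads and, near it, another of 112 bp with a 20 nt mature strand and 97 reads. Number 2 had 5 hairpins in Lg7742a, 4 on M and 4 on T, so this run did not set the hybrid chromosomes apart in count. The sources used here do not say how reads that match several such copies were shared out.

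Hairpins were then matched between namesake chromosomes without use of their reads. A match needed mature strands of equal length, hairpin lengths within 10 bp, mature positions within 10 bp, and a single candidate on both chromosomes. Of the 81 hairpins of Lg7742a, 12 found a partner on the same-numbered M chromosome and 12 on the same-numbered T chromosome, 14.8% each. As a background, matching on chromosomes of another number succeeded in 5.68% of 1620 trials for M and 6.73% for T. The difference was larger in position, which the rule did not use. Partners lay within 0.05 of the same relative position, on a scale from 0 to 1 along the chromosome, in 11 of 12 M matches and 10 of 12 T matches. On other numbers this held for 15 of 92 and 15 of 109. The median distance was 0.015 for M and 0.016 for T, against 0.24 and 0.29 on other numbers.

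**Figure D4:**
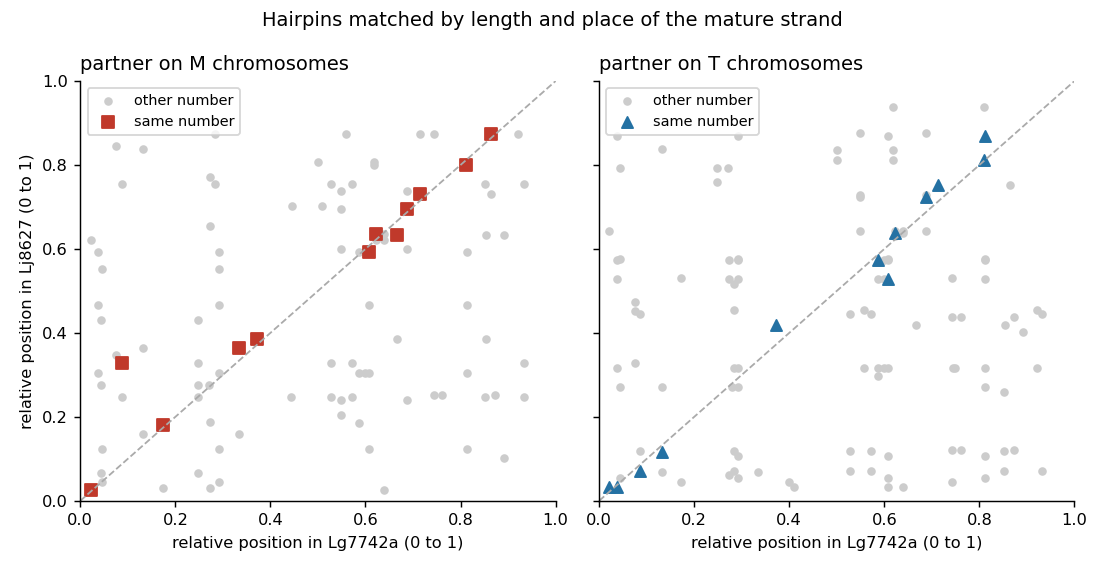
Relative position of matched hairpins, from 0 at the start to 1 at the end of the chromosome, in Lg7742a (horizontal axis) and in Lj8627 (vertical axis), for M on the left and T on the right. Coloured symbols are the 12 matches on the same number in each panel, grey dots the 92 and 109 on other numbers, and the dashed line marks equal position; all but a few same-number matches lie near it.

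Pairing the other way round, by relative position within 0.05, was added after these results were seen. It used position and mature length but not hairpin length or arm. It paired 32 hairpins of Lg7742a with M (39.5%) and 31 with T (38.3%), compared with 15.9% and 15.7% of trials on other numbers. Of the 32 pairs with M, 19 had the same arm and hairpin lengths within 10 bp, 59.4%, against 16.7% of pairs on other numbers. For T it was 22 of 31, or 71.0%, against 15.0%. Many of these alike pairs are matches already given by length, so both ways of pairing rest partly on the same hairpins. Order could be read where a chromosome had more than 1 match by length. All 3 couples of matched hairpins had the same order in Lg7742a and M, and 4 of 5 in Lg7742a and T. These couples are few, include the doubtful matches on numbers 5 and 7 given below, and have no background on other numbers. With the closest partner taken where several met the limits, 22 of 28 couples kept their order for M and 15 of 22 for T.

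Hairpins matched on both hybrid chromosomes numbered 8, and they held 77.2% of the hairpin reads of Lg7742a. A single hairpin held 63.8%. It was the leading 21 nt hairpin of Lg7742a, on the minus strand of chr7 from 587386 to 587598. Its partners lay on chr7M from 423952 to 424163 and on chr7T from 761196 to 761407. The hairpins were 213, 212 and 212 bp long, all with the mature strand on the 3′ arm, at relative positions 0.022, 0.025 and 0.033. Mature reads were 2369845 in Lg7742a, 602031 on chr7M and 602550 on chr7T. Such near-equal M and T values recur in the pairs below. Whether reads matching both copies were divided between them is not stated, so the M and T values may not be separate measurements, and their sum is set against Lg7742a. In RPM, M and T together reached 0.472 times the Lg7742a value.

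A further pair of heavily read hairpins lay on number 16 of the hybrid. Lj8627 had 21 nt hairpins of 253 bp on chr16M, from 10407369 to 10407621, and of 257 bp on chr16T, from 13276137 to 13276393, with 598898 and 598874 mature reads. The only hairpin on chr16 of Lg7742a had a 22 nt mature strand and was 122 bp long. Over all its chromosomes, 1 hairpin of Lg7742a met the limits of length and mature position for chr16M and 0 met those for chr16T. That hairpin lay on chr21, from 816783 to 817027, was 245 bp long and held 380 reads, 11 on the listed mature and 309 on the star strand. The 4 hairpins on chr7M, chr7T, chr16M and chr16T summed to 2402353 mature reads, or 445348 RPM. The single hairpin on chr7 of Lg7742a held 473461 RPM. The Lj8627 sum was 0.941 times as high. The chr16M and chr16T hairpins, each second in reads in its set, did not match the chr7 hairpin in length or mature position. This grouping was made with the read counts known and is a description only. Mature sequences were not compared here, so it is not known whether these hairpins yield the same microRNA.

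A 22 nt hairpin, the second most read of Lg7742a, was matched on number 5 near relative position 0.81. It lay on chr5 from 23346760 to 23346886 and was 127 bp long. The partners were 131 bp long on chr5M, from 16875103 to 16875233, and 126 bp on chr5T, from 19404389 to 19404514. It had 369015 mature reads in Lg7742a, 295075 on chr5M and 294717 on chr5T. The M and T copies together were 1.48 times the Lg7742a value in RPM. Strands differed: minus in Lg7742a and plus on both hybrid chromosomes.

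On chr13 a pair of matched hairpins kept order and strand in all 3 sets. The first, 203 bp in Lg7742a, 199 bp on chr13M and 203 bp on chr13T, had 49631, 41637 and 41760 mature reads. The next, 156, 157 and 157 bp, had 26936, 12411 and 12507. On chr6 a hairpin of 198 bp in all 3 sets, with the mature strand at the same place, had 45563, 22736 and 22434 mature reads. Summed over M and T, the hairpin on chr6 reached 0.920 times and the ones on chr13 1.56 and 0.858 times the Lg7742a value in RPM. The hairpins on chr8, of 124, 124 and 126 bp, had 1641, 567 and 585 mature reads. A 22 nt hairpin on chr12, of 127, 124 and 126 bp, had the fewest in Lg7742a, 162, against 211 and 201. Over the 8 hairpins the summed M and T value ranged from 0.472 to 2.36 times that of Lg7742a, with a median of 0.889, and was lower in 5. Among the 5 is the first hairpin on chr5, at 0.529, whose M partner held 3 mature reads and is a doubtful match, as given below.

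**Figure D5:**
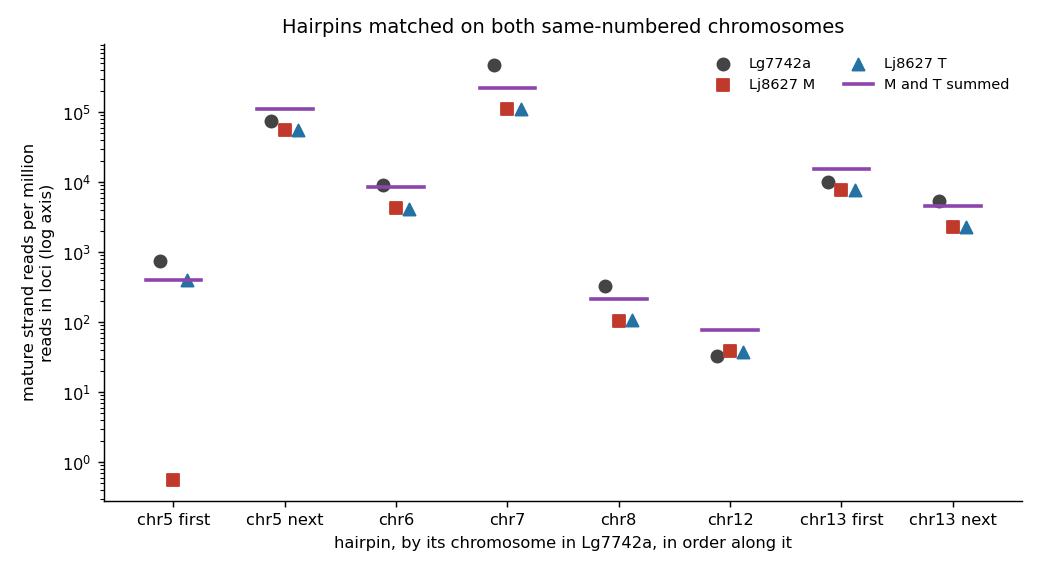
Mature strand reads in RPM, scaled to the reads in loci of the accession (vertical axis, log scale) of the 8 hairpins of Lg7742a matched on both same-numbered chromosomes of Lj8627, named by chromosome (horizontal axis). Symbols are Lg7742a, M and T and purple lines the sum of M and T, with no error bars because replicates are pooled; M and T symbols lie side by side except for the first hairpin on chr5, at 0.556 RPM on M.

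Some matches by length went against position or reads. The first hairpin of chr5 in Lg7742a, from 2504665 to 2504781, had 3740 mature reads at relative position 0.087. Its T partner had 2131 at 0.072, but its M partner had 3 at 0.328. On number 7 the rule joined a hairpin of Lg7742a with 80935 reads, from 994813 to 994932, to a hairpin of 4 reads on chr7T. A hairpin of 137 bp with 28758 reads, at relative position 0.044 on chr7T, was passed over because its length differed by 17 bp.

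The rule also left out hairpins whose arms were assigned differently. The most read hairpin of number 3 was 198 bp long in Lg7742a, from 23251031 to 23251228, 191 bp on chr3M and 193 bp on chr3T, at relative positions 0.667, 0.632 and 0.631. The 5′ strand held 51878 reads in Lg7742a and 45007 on chr3M and was listed as mature. On chr3T the 5′ strand held 43074 reads but was listed as star, beside a mature strand of 2179. Number 12 held the third most read hairpin of Lg7742a, from 928904 to 929033 with 143493 mature reads, and several candidates kept it from a match. In all 3 sets a hairpin of 130 to 131 bp had a smaller one 2406 to 2650 bp before it, on the plus strand near relative position 0.05. The larger one had 27082 mature reads on chr12M and 42252 on chr12T. The smaller one had 11722 in Lg7742a, 5039 on chr12M and 4917 on chr12T.

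Outside hairpins, the 21 nt loci with most reads also lay on the same numbers in the 3 sets. Numbers 19 and 12 gave the leading 2 in each. On number 19 a plus-strand locus near the end held 74860 reads in Lg7742a, from 11944551 to 11945567, at relative position 0.963. Its namesakes held 57507 reads on chr19M, from 8370355 to 8371925, and 40638 on chr19T, from 10178448 to 10179900, both at 0.940. On number 12 a minus-strand locus held 48051 reads in Lg7742a, from 3327455 to 3329158, 58488 on chr12M, from 2997380 to 2998873, and 24982 on chr12T, from 4335972 to 4337560. Relative positions were 0.161, 0.216 and 0.245. These loci were 1017 to 1704 bp long. In the other classes, number 2 held a leading 22 nt locus in each set, on chr2 at 0.436, chr2M at 0.556 and chr2T at 0.941, so not at like positions. Lg7742a and M shared number 7 for a leading 24 nt locus, at 0.624 and 0.696, and number 4 for a leading locus without a size call, near the start of chr4 and at 0.746 on chr4M. No other number was shared between leading loci of a class.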

How the data were processed

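Small RNA libraries of whole fronds were made with 3 biological replicates per accession. The files name ShortStack as the caller of loci on all replicates together, against assembly asm202106v1 of each accession. Among tools, fastp 0.20.1 and deepTools appear in the submitters' processing notes, with no role stated; alignment settings and locus thresholds could not be read from any header or label. The deposited values are read counts per locus, whole numbers without normalization by the authors. How reads that match both M and T, or several copies, were placed is not stated, and this can change locus and hairpin values on either set.

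Lines with a size call field, which include the loci without a size call, were kept on chr1 to chr21, with M and T apart. Mature and star lines were used only to describe hairpins. Loci per Mb used lengths to the last locus, and RPM values are reads divided by the reads in all loci of the accession, 5005362 in Lg7742a and 5394332 in Lj8627. Intervals are 95% Wilson intervals for shares and exact binomial intervals for ratios. No sample column was left unused. Analysis used Python 3.11.15, pandas 2.3.3, numpy 2.4.6, scipy 1.17.1 and matplotlib 3.10.9, and the steps were tested on simulated lists. No genome sequence was used, so no hairpin sequence is shown and no microRNA family is named. The rule for named items took the 5 most read hairpins per set, hairpins matched on both hybrid chromosomes, the 2 most read other loci per class and the extreme ratios; the chromosomes, classes and lists were chosen with earlier results of these data known. Alternatives were read minimums, scaled reads, other lengths and matching limits, and chromosome numbers left out in turn.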

Additional observations from a re-analysis of the deposited data

Results flagged for a closer look

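Signal also lay off the numbered chromosomes and entered no comparison above. In Lg7742a, 183 loci with 77301 reads were listed on the chloroplast, the mitochondrion and unplaced scaffolds. In Lj8627 there were 1120 such loci with 126964 reads, 1012 of them on scaffolds. The scaffold loci of Lj8627 included 373 of 24 nt, 101 of 22 nt and 7 hairpins, against 30, 12 and 2 in Lg7742a. Scaffolds carry no M or T letter, so these loci could belong to either hybrid set.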

How the results depend on the processing

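No paired analysis was possible because every list merges its 3 libraries, which also kept single replicates from being left out. Matching a mature against a star strand, pairing by relative position, and leaving out hairpins together with the 2 other most read loci were chosen after seeing the data. Ratios to Lg7742a moved beyond their counting interval as follows; where a minimum or the divisor changed a value, this follows from which loci or lengths were counted; the cause was not tested further. The 24 nt ratio with at least 5 reads was 5.48 for M and the 22 nt ratio 3.34 for T. With at least 10 reads, the 24 nt ratio was 5.20 for M and 0.582 for T, the 22 nt ratio 4.38 for T, and the 21 nt ratio 1.03 for M and 0.963 for T. After scaling to the set with fewest reads outside hairpins, with at least 10 scaled reads, M and T had ratios of 7.01 and 2.71 for 24 nt, 2.52 and 8.26 for 22 nt, and 1.23 and 1.63 for 21 nt loci. With no correction for length they were 3.01 and 0.826, 1.57 and 2.34, and 1.08 and 0.876. T had more 24 nt loci than Lg7742a on 3 numbers, not 8, both with at least 10 reads and with no correction for length. Taking the closest partner where several met the limits, 31 hairpins were matched on M and 32 on T, with 22 of 28 and 15 of 22 couples in the same order. In reads with hairpins counted, T had 0.877 times the 22 nt reads per Mb of Lg7742a, which turned to 1.22 without hairpins, 1.03 without the 2 loci with most reads and 1.25 without both hairpins and the 2 other most read loci. For M the value was 1.30, and 2.87, 1.95 and 1.51 in the same settings. M and T share the same divisor in these read ratios, which lowers both. Leaving out any chromosome number, leaving out hairpins, the span from the first locus and the median of chromosome ratios kept the 24, 22 and 21 nt ratios of loci within their intervals; for 23 nt loci and those without a size call these settings were not run. What library depth limits was not measured; 24 nt loci held a median of 5 or 6 reads in lists that start at 3.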
